A study of Mus musculus with 2 samples.

Results

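The genes of oxidative phosphorylation were chosen by symbol, as the protein-coding genes of the mitochondrial genome (mt-Nd, mt-Co, mt-Atp and mt-Cytb symbols) and the nuclear genes of complexes I to V (symbols starting Ndufa, Ndufb, Ndufc, Ndufs, Ndufv, Cox4 to Cox8, Uqcr or Atp5, and Sdha to Sdhd). The rule found 105 genes of the 48825 features, 13 mitochondrial and 92 nuclear, and all 105 had an entry in the GENCODE M21 annotation of mm10 (GRCm38). By symbol, 45 of them belong to complex I, 4 to complex II, 9 to complex III, 21 to complex IV and 19 to complex V, and 7 are assembly factors (Ndufaf). Single-cell RNA-seq was performed on parotid glands of wild-type female C3H mice that were 1 year old. The IR library came from glands collected 10 months after irradiation, which had been given as 6 Gy on each of 5 days to a total dose of 30 Gy, and the control library came from glands that were not irradiated. Each library pooled 2 mice, so each condition had 1 library and no test between conditions was possible.

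Oxidative phosphorylation makes ATP in the inner mitochondrial membrane. Complexes I and II pass electrons from NADH and succinate to ubiquinone, complex III passes them on to cytochrome c and complex IV to oxygen, and complex V (ATP synthase) uses the proton gradient that complexes I, III and IV build. Complex II is encoded wholly in the nucleus, whereas the other complexes join mitochondrial and nuclear subunits. In salivary glands, striated ducts are known for rows of mitochondria that feed the ion pumps which modify saliva, while acinar cells make and secrete the salivary proteins.

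Barcodes with at least 200 genes were kept, without a limit on mitochondrial RNA, which left 4638 control and 7144 IR cells with 21083479 and 23055839 UMIs (unique molecular identifiers, tags that mark single RNA molecules). The median cell had 2478.5 UMIs in the control library and 2180 in the IR one, and 8 barcodes occurred in both. A limit of 5% on the UMIs of the 37 genes whose symbol starts with mt-, the limit used in the study, would leave out 1260 control cells (27.2%) and 1858 IR cells (26.01%). Clusters were built without the members and without any mt- gene. They are called by a cell type only where fixed markers led them, so acinar-like, duct-like and immune classes are rebuilt names. Secretory genes took 69.9% of the UMIs of control acinar-like cells and 6.39% of those of control T-like cells. A level is therefore given in CPM, here UMIs per 1000000 UMIs of genes other than the secretory, haemoglobin and mt- genes and Gm42418, summed over the cells of a class. A UMI counts a transcript once whatever its length. Cluster 7 is given by its number and kept apart from the T-like class. Its raised genes held 9 of 12 T-cell markers and 2 of 6 natural killer markers. Gzmm, Klrc1 and Eomes were among its leading genes. Cluster 6 is given by its number too. All 7 markers of Etv1+ secretory cells were among the raised genes of its sub-clusters 6a, 6c and 6e. All 8 acinar markers were among those of 6b and 6f. Etv1 was not among those of 6b, which held 4 of the 7 Etv1+ markers, but was among those of 6f, which held 2. In 6d, 3 Etv1+ and 3 acinar markers were raised. Sub-cluster 6b held 48.2% of the control UMIs on which the CPM of the cluster rest and 45.4% of the IR ones. All intervals are 95% intervals (exact Poisson for levels, exact conditional binomial for ratios and Clopper-Pearson for shares) and cover counting error only, not the spread between mice or libraries.

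The 13 mitochondrial members took 1.53% of all UMIs in the control library and 1.93% in the IR one, and the 92 nuclear members 0.946% and 1.02%. Most mitochondrial UMIs came from few genes. mt-Cytb, the cytochrome b of complex III, had 251553 UMIs over both libraries, and the complex I subunits mt-Nd2, mt-Nd4 and mt-Nd1 had 175812, 153563 and 120496. Together these 4 genes held 90.7% of the mitochondrial member UMIs of the control and 91.96% of those of the IR library. At the other end, mt-Co2 had 349, mt-Nd4l 296, mt-Co3 198 and mt-Nd3 17 UMIs. As background, the mitochondrial genome is transcribed as long precursors that are then cut into the single RNAs.

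The genes with the fewest UMIs, mt-Co2, mt-Nd4l, mt-Co3 and mt-Nd3, have near-identical nuclear copies, as have mt-Atp6 (2746 UMIs) and mt-Co1 (32936). In the last 400 bases of their transcripts, mt-Co1 and mt-Co2 shared 100% of 50-base words with another annotated gene, mt-Co3 99.7%, mt-Atp6 99.1%, mt-Nd4l 98.8% and mt-Nd3 98.0%, all with unprocessed pseudogenes that lie side by side on chromosome 1. The share was 22.8% for mt-Nd2 and 0% for mt-Nd1, mt-Nd4 and mt-Cytb. It was 5.98% for mt-Nd5 (23405 UMIs) and also 0% for mt-Atp8 (4601) and mt-Nd6 (1189), so not every gene with few UMIs has a copy. The sequences below, from the annotated transcripts, show 80 bases that end 10 bases before the end of the transcript, for a gene with an identical copy and few UMIs, for a gene with a copy that can be told apart, and for the gene with the most UMIs. Capitals mark the bases of the copy that differ from the mitochondrial gene.
mt-Nd3: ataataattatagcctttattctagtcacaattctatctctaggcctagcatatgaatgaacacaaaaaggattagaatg
Gm28438 (copy of mt-Nd3): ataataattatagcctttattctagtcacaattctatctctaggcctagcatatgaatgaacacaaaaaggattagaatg
mt-Co3: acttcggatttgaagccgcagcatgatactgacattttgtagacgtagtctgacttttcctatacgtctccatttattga
Gm28437 (copy of mt-Co3): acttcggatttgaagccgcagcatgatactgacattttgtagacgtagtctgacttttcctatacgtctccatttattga
mt-Nd2: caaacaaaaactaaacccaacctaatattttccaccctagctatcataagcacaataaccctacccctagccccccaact
Gm13339 (copy of mt-Nd2): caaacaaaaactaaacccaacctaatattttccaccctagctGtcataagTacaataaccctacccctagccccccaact
mt-Cytb: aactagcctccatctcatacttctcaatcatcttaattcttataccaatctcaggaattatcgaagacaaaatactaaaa

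The windows of mt-Nd3 and mt-Co3 had 0 mismatches to their copies, and that of mt-Nd2 had 2 to Gm13339. The pseudogene Gm28438, on chromosome 1 from 24612775 to 24613119, had 10525 control and 9760 IR UMIs, against 10 and 7 for mt-Nd3 itself. Gm28438 was counted in every class, at 2.67 to 4.15 UMIs per 100 mitochondrial member UMIs over 12 control classes and 1.55 to 2.56 over the same IR classes. Gm28437, the copy of mt-Co3, had 0 UMIs in both libraries, and Gm13339 had 1. How reads that match a mitochondrial gene and its copy were assigned was not tested here, so the counts of the 6 genes with copies are uncertain. These 6 genes held 5.23% of the mitochondrial member UMIs of the control and 4.43% of those of the IR library, and without mt-Co1 0.454% and 0.481%, so the sums below rest on mt-Cytb, mt-Nd1, mt-Nd2 and mt-Nd4. Among nuclear members, Atp5g2, a gene of the c-ring of ATP synthase, shared 100% of its words with another gene, Atp5l 78.6%, Cox7c 74.1%, Atp5g1 67.2%, Ndufs3 64.7% and Atp5h 55.8%, and their counts are uncertain for the same reason.

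The striated duct-like cells had the highest levels of both kinds of member. In the control library their 134 cells had 78013 nuclear member CPM (76689 to 79354) and their 127 IR cells 47353 (46398 to 48324). Acinar-like cells had 19844 in the control (463 cells) and 17866 in the IR library (435 cells), and cluster 6 had 17954 and 15900. B-like cells had 14271 and 12895, and T-like cells 14139 and 13574. The control levels of B-like, T-like and stromal-like cells (13989) lay within or near each other's counting intervals, and cycling-like (25324, 26 cells) and intercalated duct-like cells (25270) could not be ordered either. Clusters 4 and 5, shallow cells with medians of 673 to 860 UMIs that no marker list named, were lowest, at 10332 and 8828 in the control.

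**Figure D1:**
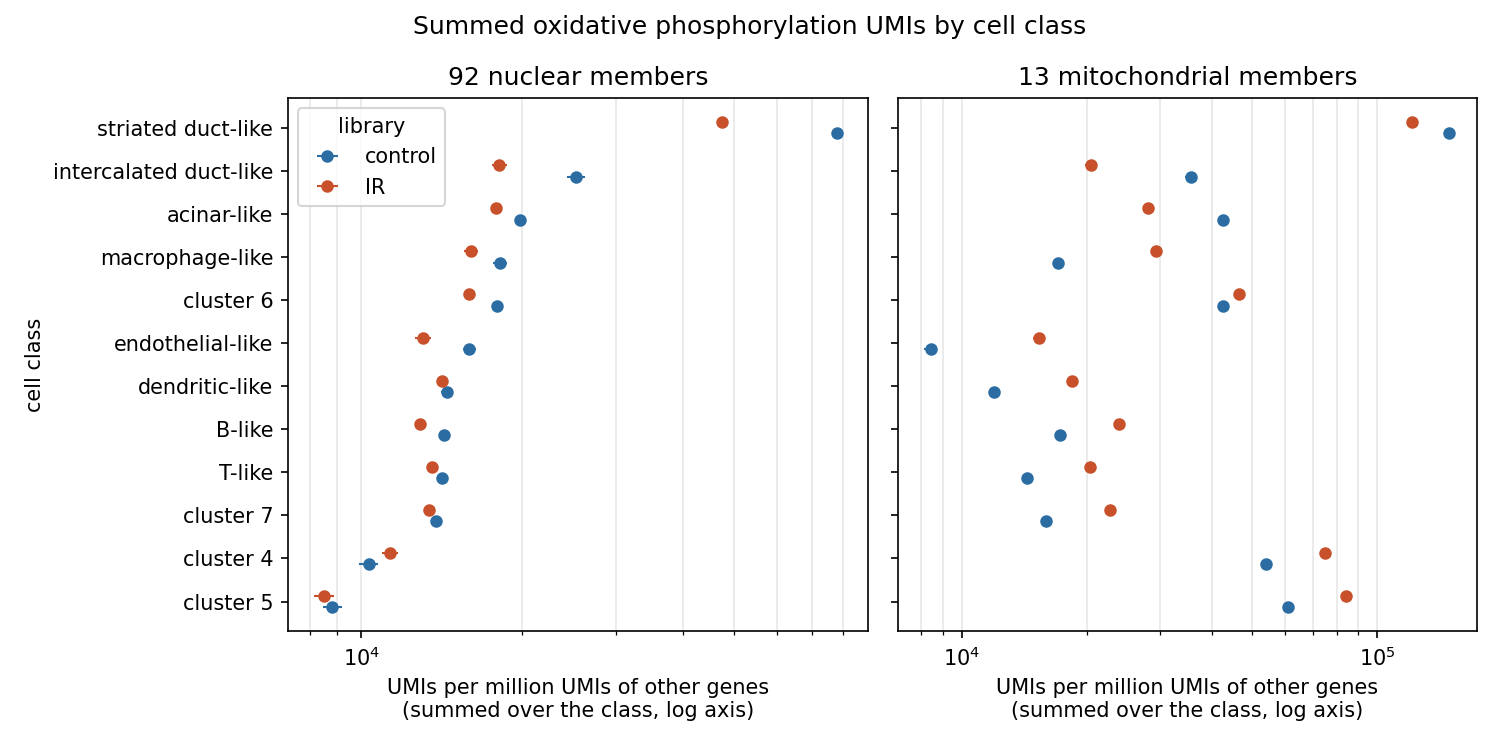
Level of the nuclear (left) and mitochondrial members (right) in 12 cell classes with at least 50 cells in each library, in CPM on a log axis. Points are sums over the cells of a class in 1 library and bars are 95% Poisson intervals. Striated duct-like cells lie to the right of every other class in both panels, and IR points lie to the right of control points for the mitochondrial members in 9 of the 12 classes.

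The mitochondrial members ordered the classes differently. They took 10.5% of the UMIs of control and 6.92% of those of IR striated duct-like cells. Clusters 5 and 4 came next, with 4.42% and 3.51% in the control, although their nuclear levels were the lowest. Acinar-like cells had 1.16% and 0.883%, T-like cells 1.29% and 1.86%, and endothelial-like cells 0.764% and 1.41%. These are shares of all UMIs, secretory genes included. In CPM, which leave out secretory genes, the mitochondrial members were higher in control acinar-like (42399) than in control T-like cells (14368). Clusters 5 (61030) and 4 (53914) still came next after striated duct-like cells (148489) in the control. Per nuclear member UMI, there were 1.02 mitochondrial member UMIs in control T-like cells, 2.14 in acinar-like, 1.90 in striated duct-like and 6.91 in cluster 5 cells, a ratio that needs no scaling.

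In the secretory and duct classes, a few cells carried most of the mitochondrial RNA. The median control acinar-like cell had 0.0880% of its UMIs on mt- genes, and 81 of 463 (17.5%) had over 5%. The 59 acinar-like control cells over 20% (12.7% of the class) carried 82.4% of its mitochondrial member UMIs, and the 38 such IR cells (8.74%) carried 69.9%. In control striated duct-like cells the median was 0.738%, and the 26 cells over 20% (19.4%) carried 74.2%. In T-like cells the medians were 2.46% and 2.95%, and the 5 control and 12 IR cells over 20% carried 4.23% and 2.14%. A sum over acinar-like or striated duct-like cells therefore describes the cells with much mitochondrial RNA, and a median describes the others.

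**Figure D2:**
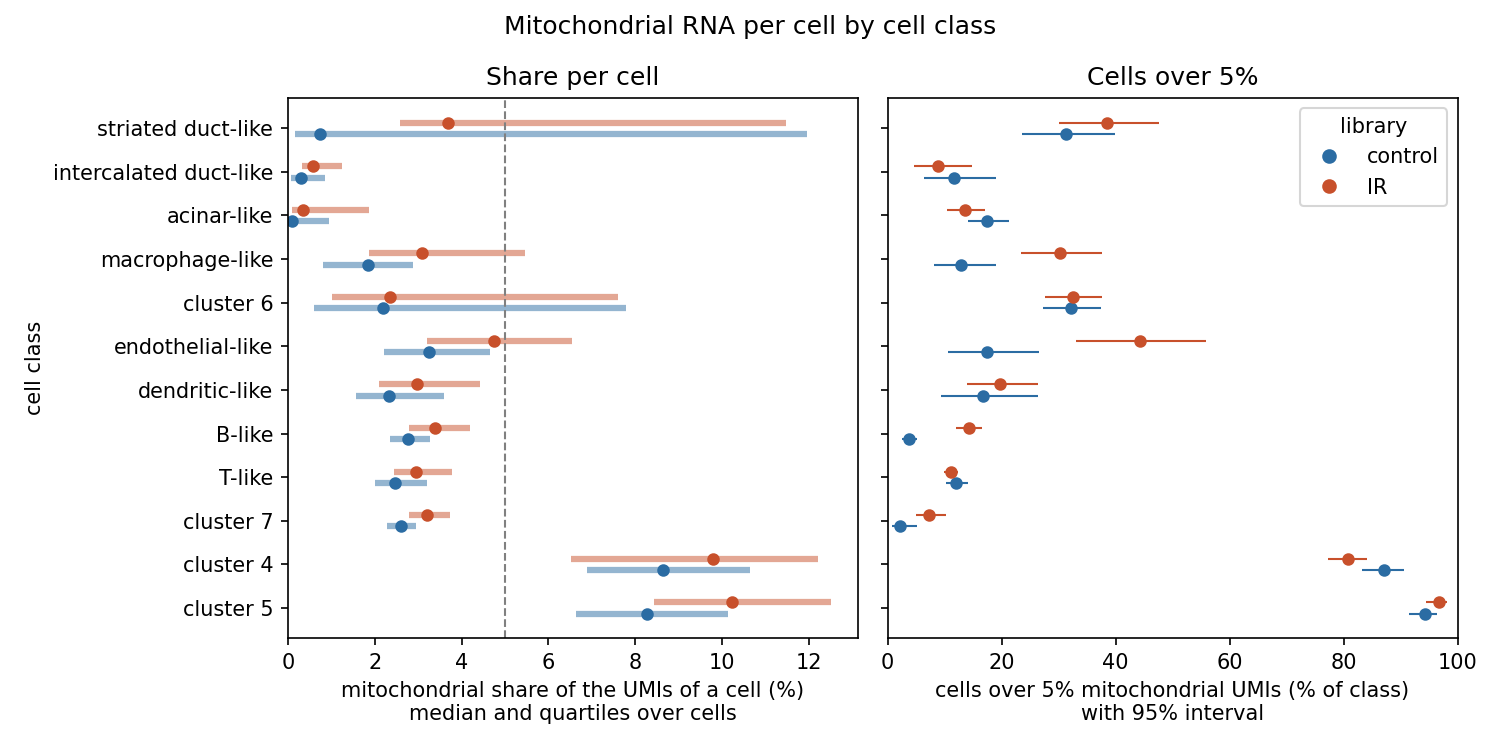
Share of the UMIs of a cell on the 37 mt- genes in the same 12 classes (left, median as a point and quartiles as a bar, with a dashed line at 5%) and share of cells over 5% with its 95% interval (right). In the control library the acinar-like, intercalated duct-like and striated duct-like medians (0.0880, 0.302 and 0.738%) lie below those of the immune classes, whereas the IR striated duct-like median (3.68%) lies above the T-like one (2.95%), and clusters 4 and 5 have 80.9 to 96.7% of their cells over 5%.

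In acinar-like cells, the nuclear members were at a similar level at the lowest and the highest of these shares. In striated duct-like cells they were lower at the highest. Control acinar-like cells with at most 1% mitochondrial UMIs (349 cells) had 20187 nuclear member CPM (19878 to 20500), those with 1 to 5% (33 cells) 14307 and those over 20% (59 cells) 20224 (18634 to 21913). Malat1, an RNA kept in the nucleus, was at 1074, 12649 and 19478 CPM in the same 3 sets. In control striated duct-like cells, the 74 cells with at most 1% had 109344 nuclear member CPM and 881 of Malat1, and the 26 cells over 20% had 65942 and 57680. Cells with much mitochondrial RNA thus also had more of an RNA kept in the nucleus in both classes, and the part that damaged or broken cells have in these levels was not tested.

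Between the duct and acinar classes, the comparison within a library asks how the machinery differs between the cells that make and the cells that modify saliva. Nuclear members were 3.93 times higher (3.84 to 4.02) in control striated duct-like than in acinar-like cells, and mitochondrial members 3.50 times (3.45 to 3.56). In the IR library the ratios were 2.65 and 4.29. All 73 nuclear members with at least 50 UMIs over both control classes were at least 1.5 times higher in striated duct-like cells, where 54.4% of all 1639 genes tested were, and the median of these members was 3.84 against 1.69 for all genes. In the IR library 70 of 72 members were, against 54.4% of all genes. Of the 72 members tested in both libraries, 72 had a ratio above 1 in each.

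By complex, the ratio of striated duct-like to acinar-like control cells was 5.02 for complex II, 4.45 for complex III, 4.40 for complex IV, 3.73 for complex V and 3.56 for complex I. Sdha, the flavoprotein of complex II, was at 460.0 CPM in control striated duct-like and 64.7 in acinar-like cells, a ratio of 7.11 (4.998 to 10.2). Ndufs1, which carries iron-sulphur clusters of complex I, had a ratio of 10.1 (5.89 to 17.8) from 42 and 22 UMIs. Cox6c of complex IV and Uqcr10 of complex III had ratios of 7.29 and 6.40. These 4 genes and Cox7a1, described with the isoforms, were the members with the highest ratios. The lowest ratios of nuclear members were those of Cox7a2l, which helps complexes III and IV to join (1.57, from 1.21 to 2.002), Ndufa3 (1.93), Ndufv3 (2.05), Ndufa2 (2.14) and Ndufs6 (2.15). In the IR library Sdha had a ratio of 5.85, Ndufs1 8.23, Cox6c 5.23 and Uqcr10 4.68, and Ndufv3 (1.17) and Cox7a2l (1.37) were the 2 members under 1.5.

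**Figure D3:**
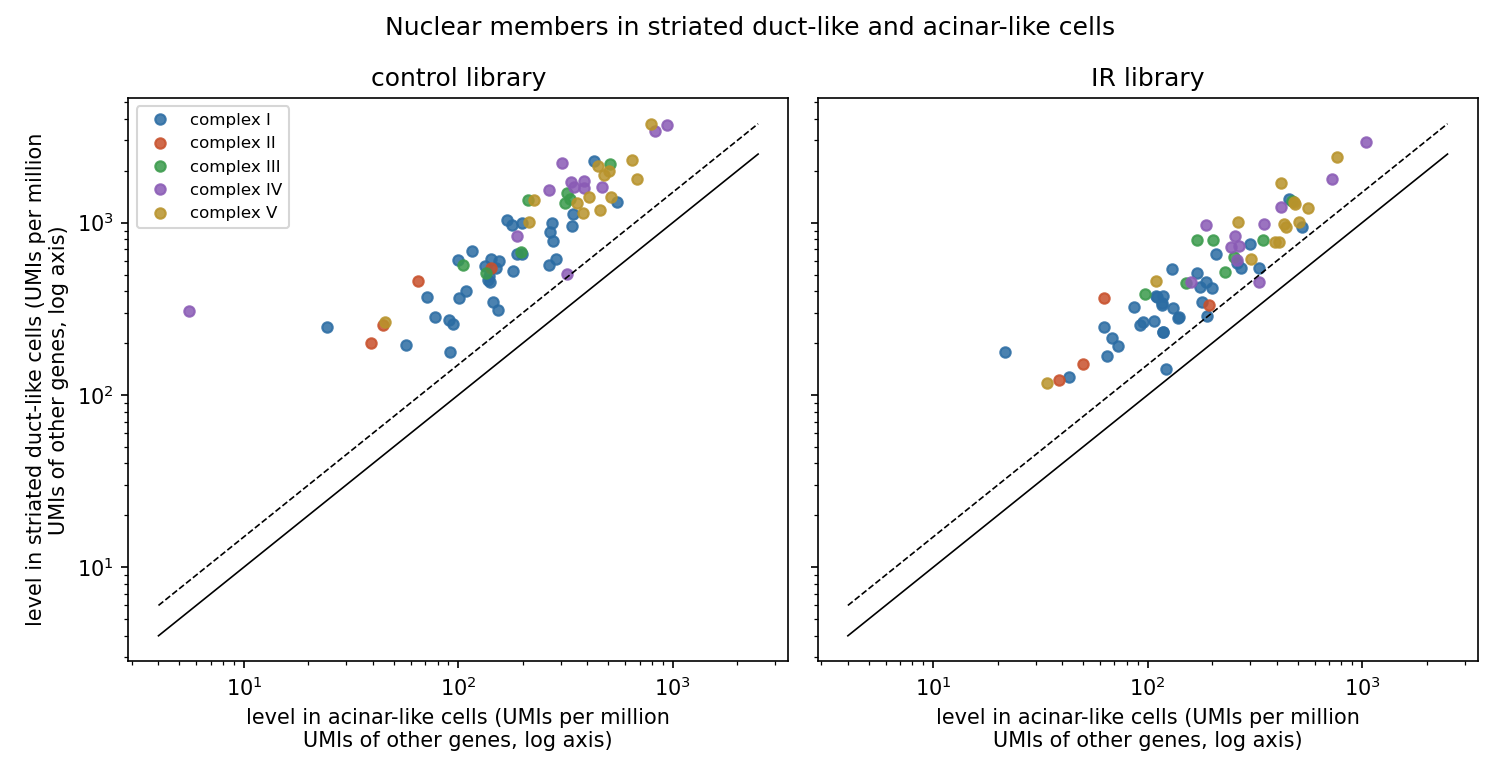
Level of each nuclear member with at least 50 UMIs over both classes in acinar-like (horizontal axis) and striated duct-like cells (vertical axis), in CPM on log axes, coloured by complex. The solid line marks equal levels and the dashed line a ratio of 1.5. All 73 points of the control library and 70 of 72 of the IR library lie above the dashed line.

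Genes around the respiratory chain were also higher in control striated duct-like cells. All 12 measured genes of the tricarboxylic acid cycle, all 13 carriers and related genes (such as the ATP/ADP and phosphate carriers) and all 9 measured genes of glycolysis were at least 1.5 times higher than in acinar-like cells, with summed ratios of 5.71, 4.27 and 7.33. Mitochondrial ribosome genes did so less widely, in 23 of 39, a share near the 54.4% of all 1639 genes tested, with a summed ratio of 1.999. The sum of cytosolic ribosome genes was lower, at 0.662. Malat1 was 14.8 times higher. With CPM over all genes, the ratios were 10.2 for nuclear and 9.09 for mitochondrial members. With a TMM factor, which sets the typical gene to be equal, they were 1.35 and 1.21, and the mitochondrial ratio ranged from 0.853 (each cell weighted alike) to 49.4 (cells with at least 500 genes). The nuclear ratio stayed between 3.26 and 5.29 under the other filters, clusterings and weights tried.

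The striated duct-like class was not uniform. Cluster 12a, led by Klk1b9, Fxyd2, Krt7 and Crisp3, had 110935 nuclear member CPM in 66 control cells and 68322 in 27 IR cells. Its raised genes held 6 of 9 striated duct markers but also 5 of 5 erythroid markers (haemoglobin genes and Alas2). Cluster 12d, led by Klk1b26, Klk1 and Crisp3, had 65308 in 22 control cells and 48710 in 13 IR cells, and every one of its cells had over 5% mitochondrial UMIs (median 22.8% and 16.3%). Cluster 12a had control medians of 808.5 UMIs and 0.348% mitochondrial UMIs, against 5921 UMIs in cluster 12d. The limit of 5% on mitochondrial RNA thus removes cluster 12d whole and 7 of the 66 control cells of cluster 12a. Cluster 12b, with 53 IR and 0 control cells, was the lowest, at 34035 nuclear member CPM. Secretory genes took 56.5% of its UMIs. Its raised genes held 6 of 9 striated duct markers but also 5 of 6 intercalated duct markers, so its markers are mixed. Those of cluster 12d held 8 and 6 of the same lists.

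The comparison of IR with control asks what remained changed long after irradiation. For the mitochondrial members the direction differed between classes. T-like cells (1127 control and 2778 IR cells) had 14368 mitochondrial member CPM in the control library and 20373 in the IR one, a ratio of 1.42 (1.40 to 1.43). The ratio was 1.39 in B-like, 1.54 in dendritic-like, 1.72 in macrophage-like and 1.82 in endothelial-like cells, and 1.09 in cluster 6. In acinar-like cells it was 0.663 (0.653 to 0.674), from 42399 and 28130, in intercalated duct-like cells 0.574 and in striated duct-like cells 0.814. Of the 12 classes with at least 50 cells in each library, 9 had a ratio above 1 and 3 below, with a median of 1.39. In each of the 3 below 1, leaving out some of the cells turned the ratio, as given next.

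In acinar-like cells the sum and the median went opposite ways. The median acinar-like cell rose from 0.0880% to 0.351% mitochondrial UMIs, while the share of cells over 20%, which carried most of the sum, was 12.7% and 8.74%. Among cells at or under 5% the ratio was 2.03 (1.93 to 2.12, 382 control and 376 IR cells), and it was 1.74 with a limit of 10%, 2.64 in cells with at least 500 genes and 1.23 with clusters at resolution 1.5. In striated duct-like cells the ratio was 2.19 at or under 5%. The cells over 5%, left out there, carried 98.7% of the control and 96.3% of the IR mitochondrial member UMIs of the class. Cluster 12b, with 53 IR and 0 control cells and a median of 3.07% mitochondrial UMIs, was still counted in part. The ratio was 2.87 in cluster 12a and 2.785 in cluster 12c, but 0.775 in cluster 12d and 0.413 in cluster 12e. Without cluster 12b, an alternative chosen after seeing the data, the ratio of the class was 1.03 (1.01 to 1.05). In intercalated duct-like cells, cluster 9d held 9 of 112 control cells and 63 of 137 IR cells, and 76.7% of the IR UMIs on which the CPM of the class rest. Without it, also chosen after seeing the data, the ratio of that class was 1.53 (1.46 to 1.61), against 0.574. At or under 5% mitochondrial UMIs the ratio of intercalated duct-like cells did not turn, at 0.604 (0.557 to 0.656). In cluster 6 the ratio was 0.947 at or under 5% and 1.08 without 6b, the latter chosen after seeing the data, against 1.09. The direction in the acinar-like and both duct-like classes and in cluster 6 therefore depends on which cells are counted. In T-like cells the ratio stayed between 1.28 and 1.499 under all alternatives tried. At or under 5%, the macrophage-like ratio fell from 1.72 to 1.16 (1.10 to 1.21). Macrophage-like cells over 5% were 12.9% of control and 30.2% of IR cells, carrying 25.2% and 55.3% of the mitochondrial member UMIs. The ratio also fell in dendritic-like (1.28), endothelial-like (1.60) and B-like cells (1.32) and in cluster 7 (1.39). In cluster 5 it fell to 1.05 (0.908 to 1.22), and in cluster 4 it rose to 2.01.

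The single mitochondrial genes moved together, with 1 exception. In all acinar-like cells, mt-Cytb was at 15489 and 10757 CPM in the control and IR library, mt-Nd4 at 9635 and 6053, mt-Nd2 at 7281 and 5236 and mt-Nd1 at 6095 and 3873, which are ratios of 0.695, 0.628, 0.719 and 0.635. mt-Co1 (0.548) and mt-Nd5 (0.635), subunits of complexes IV and I, had ratios in the same range, as had mt-Atp6 (0.683, 134 and 90 UMIs). In acinar-like cells at or under 5%, mt-Cytb had a ratio of 2.17 (2.01 to 2.35), mt-Nd2 2.06, mt-Nd1 2.04, mt-Nd4 1.91, mt-Co1 1.80 and mt-Nd5 1.72. The exception was mt-Atp8, the smallest mitochondrial gene by coding length (201 bases), at 0.336 in all acinar-like cells and 0.565 (0.299 to 1.04, 32 and 18 UMIs) in those at or under 5%. In T-like cells mt-Atp8 had a ratio of 0.760 (0.665 to 0.869), whereas mt-Cytb had 1.56, mt-Nd4 1.48, mt-Nd2 1.40, mt-Nd5 1.35, mt-Nd1 1.27 and mt-Co1 1.19. The UMIs of mt-Nd6, the light-strand gene, were 70 and 269 in T-like cells, a ratio of 1.86 (1.43 to 2.46). mt-Co2, mt-Co3, mt-Nd3 and mt-Nd4l had at most 57 UMIs in either T-like library and at most 17 in either acinar-like one. The summed mitochondrial ribosomal RNAs (mt-Rnr1 and mt-Rnr2) had a ratio of 0.954 in T-like and 1.09 in B-like cells, so the RNAs of the mitochondrial genome did not shift alike there. Malat1 had a ratio of 0.798 in both classes and 0.944 in acinar-like cells. Gm28438, the copy of mt-Nd3, had a ratio of 0.924 in T-like and 0.893 in B-like cells.

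The summed nuclear members were lower in the IR library in 11 of the 12 classes. Their ratio was 0.960 (0.949 to 0.971) in T-like, 0.904 in B-like, 0.900 (0.881 to 0.920) in acinar-like, 0.718 in intercalated duct-like and 0.607 (0.591 to 0.623) in striated duct-like cells, and 0.886 in cluster 6. Over the 12 classes the median was 0.902, and cluster 4 (1.10) was above 1. The intervals of cluster 5 (0.965, from 0.909 to 1.02) and dendritic-like cells (0.978, from 0.946 to 1.01) reached above 1. At or under 5% mitochondrial UMIs the nuclear ratio was below 1 in 10 of the 12 classes. Clusters 4 (1.68) and 5 (1.09) were then above 1, and striated duct-like cells were at 0.435. Without cluster 9d the intercalated duct-like ratio was 1.07 (0.993 to 1.14), and without 6b that of cluster 6 was 0.894. With CPM over all genes the nuclear ratio was below 1 in 9 of 12 classes, and it was then 1.04 in acinar-like cells and 1.002 in cluster 6. In striated duct-like cells it was 0.616 in cluster 12a, 0.595 in cluster 12c, 0.746 in cluster 12d and 0.665 without cluster 12b. Cluster 12e (13 control and 19 IR cells) was not lower, at 1.03 (0.905 to 1.17). Secretory genes took 11.6% of the UMIs of control and 31.8% of those of IR striated duct-like cells, and the part of RNA from acinar cells in that ratio was not tested.

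The count of nuclear members past a difference of 1.5 times varied between the classes. In acinar-like cells, 10 of 72 measured members were at least 1.5 times lower in the IR library and 0 were at least 1.5 times higher, where 5.23% and 12.2% of all genes of the class were. The median member had a ratio of 0.928 and the median gene 1.08. With CPM over all genes the counts were 3 lower and 2 higher. In cluster 6, 11 of 78 were lower (5.03% of all genes) and 0 higher (8.26%). With CPM over all genes 5 were lower there and the median member had 1.09, against 0.964. In B-like cells 10 of 80 were lower (3.81%) and 0 higher (10.3%). In T-like cells 4 of 83 were lower (3.22%) and 5 higher (12.4%). In endothelial-like cells 15 of 57 were lower (8.67%) and 1 higher (7.34%), and in macrophage-like cells 12 of 59 were lower (13.8%) and 1 higher (8.8%). In dendritic-like cells 4 of 67 were lower (6.81%) and 7 higher (15%), and in cluster 4, 2 of 40 were lower (6.68%) and 5 higher (20.7%). In cluster 5, 4 of 35 were lower (9.42%) and 2 higher (9.42%), and in cluster 7, 6 of 74 were lower (4.2%) and 3 higher (15%). In striated duct-like cells 47 of 73 were lower (19.2%) and 0 higher (14.6%). In intercalated duct-like cells 22 of 47 were lower (23.2%) and 0 higher (10.5%), with cluster 9d included. Since each class has 1 library per condition, these are counts of sizes and not of tested changes.

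Of the 10 members that were lower in acinar-like cells, 8 had a coding sequence under 300 bases. Ndufa1 of complex I was at 198 and 109 CPM in the control and IR library in acinar-like cells (0.549), at 198 and 110 in cluster 6 (0.553), 89.6 and 51.2 in B-like (0.571) and 99.4 and 58.9 in T-like cells (0.592). Its IR level was the lower in each. Ndufa3 of complex I had ratios of 0.471 in acinar-like, 0.556 in B-like and 0.651 in T-like cells. Atp5k, the subunit e at which ATP synthase dimers meet, was at 213 and 109 in acinar-like cells (0.511, from 0.396 to 0.657) and had a ratio of 0.566 in cluster 6. Atp5e, the epsilon subunit of the rotating stalk, had a ratio of 0.578 in cluster 6, Ndufc1 0.585 in B-like and Ndufa5 0.558 in T-like cells. Cox6c, a small subunit of complex IV, had the lower level in the IR library in all 12 classes, with ratios from 0.418 to 0.678.

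The members with the highest ratios included subunits of complex II and, outside acinar-like cells, the complex I assembly factors Ndufaf3 and Ndufaf4. Summed, the 7 assembly factors did not go 1 way. Their control and IR levels were 131.5 and 127.0 CPM in B-like and 91.4 and 86.2 in acinar-like cells. They were 92.7 and 111.1 in T-like cells and 94.1 and 108.3 in cluster 6. Sdhb, the iron-sulphur subunit of complex II, was at 143 and 193 CPM in acinar-like cells (1.35, from 1.07 to 1.71) and at 74.0 and 98.8 in T-like cells (1.34, from 1.14 to 1.57). Sdhc, which anchors complex II in the membrane, was at 23.4 and 41.9 in T-like cells (1.79, from 1.37 to 2.37) and had a ratio of 1.48 in B-like cells. In acinar-like cells Ndufs8 (1.31) and Ndufa9 (1.20) came next among members with at least 100 UMIs, and the intervals of both reached below 1. In B-like cells Ndufaf3, an assembly factor of complex I, had a ratio of 1.45, with an interval that reached below 1 (0.955 to 2.21). Ndufs3 of the matrix arm of complex I had 1.44 (1.12 to 1.85) there. In T-like cells Ndufaf3 had 1.60 and Atp5g2 1.60 (9.16 and 14.6 CPM). In cluster 6, Ndufaf4 (1.32), Ndufs1 (1.27) and Sdhd (1.26) were highest, each with an interval that reached below 1.

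In acinar-like, B-like and T-like cells and cluster 6, the most abundant members of complexes I, III, IV and V had ratios from 0.799 to 1.13. Cox4i1, subunit 4 of complex IV, was at 939 and 1044 CPM in acinar-like (1.11), 910.04 and 907.55 in cluster 6 (0.997), 798 and 857 in B-like (1.07) and 784 and 889 in T-like cells (1.13). Atp5b, the catalytic beta subunit of ATP synthase, had ratios of 0.963, 1.04 and 1.03 in acinar-like cells, cluster 6 and B-like cells, and Atp5h, a subunit of its outer stalk, had 1.07 in T-like cells. Uqcrh, the hinge protein of complex III, ranged from 0.851 in B-like cells to 0.973 in cluster 6. For complex I, Ndufb9 had ratios of 0.955 in acinar-like cells and 1.10 in cluster 6. Ndufa4, grouped with complex I by its symbol though it is now known as a subunit of complex IV, had 0.799 in B-like and 0.941 in T-like cells. Over the 12 classes, ratios ran from 0.794 to 1.23 (Cox4i1), 0.641 to 1.49 (Atp5b), 0.669 to 1.62 (Atp5h) and 0.612 to 1.56 (Uqcrh). They ran from 0.696 to 1.43 (Ndufb9) and from 0.595 to 1.08 (Ndufa4) in the same classes.

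Summed by complex, complex II had a higher ratio than the other complexes in T-like, B-like and acinar-like cells. It was 1.25 (1.14 to 1.37) in T-like, 1.14 (1.005 to 1.29) in B-like and 1.18 (0.998 to 1.40) in acinar-like cells, and 0.982 in cluster 6. In these 4 classes the ratios of complexes I, III, IV and V lay between 0.846 and 0.986. In acinar-like cells the 4 genes of complex II had ratios of 0.965 (Sdha), 1.35 (Sdhb), 1.12 (Sdhc) and 0.988 (Sdhd). In T-like cells the values were 1.05, 1.34, 1.79 and 1.15, so Sdhb and Sdhc carried the sum. The coding sequences of the 4 genes run from 477 to 1992 bases, and only Sdhb (846 bases) lies between 600 and 1200 bases. Members of that length, whatever their complex, had median ratios of 1.13 in acinar-like and 1.23 in T-like cells. Whether coding length plays a part in the ratio of complex II was not tested. In striated duct-like cells complex II had a ratio of 0.666, against 0.566 to 0.637 for the other 4 complexes.

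Across the nuclear members, the IR over control ratio rose with coding length. In acinar-like cells, 8 of 18 members with a coding sequence under 300 bases were at least 1.5 times lower, and their median ratio was 0.696. Of the 35 from 300 to 600 bases 2 were lower (median 0.977), and of the 11 from 600 to 1200 bases and the 8 longer ones 0 were (medians 1.13 and 0.929). The median under 300 bases was 0.678 in cluster 6, 0.701 in B-like and 0.738 in T-like cells, and from 600 to 1200 bases it was 1.07, 1.05 and 1.23. Over the members, Spearman's rho of ratio and coding length was 0.632 in acinar-like (72 genes) and 0.709 in T-like cells (83 genes), and it ranged from 0.352 to 0.728 over the 12 classes, which share the same 2 libraries. The genes of a class share its libraries and are not independent, so no p-value is given. In each of the 12 classes the summed ratio of members under 300 bases was below 1 and below that of members of 600 to 1200 bases.

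**Figure D4:**
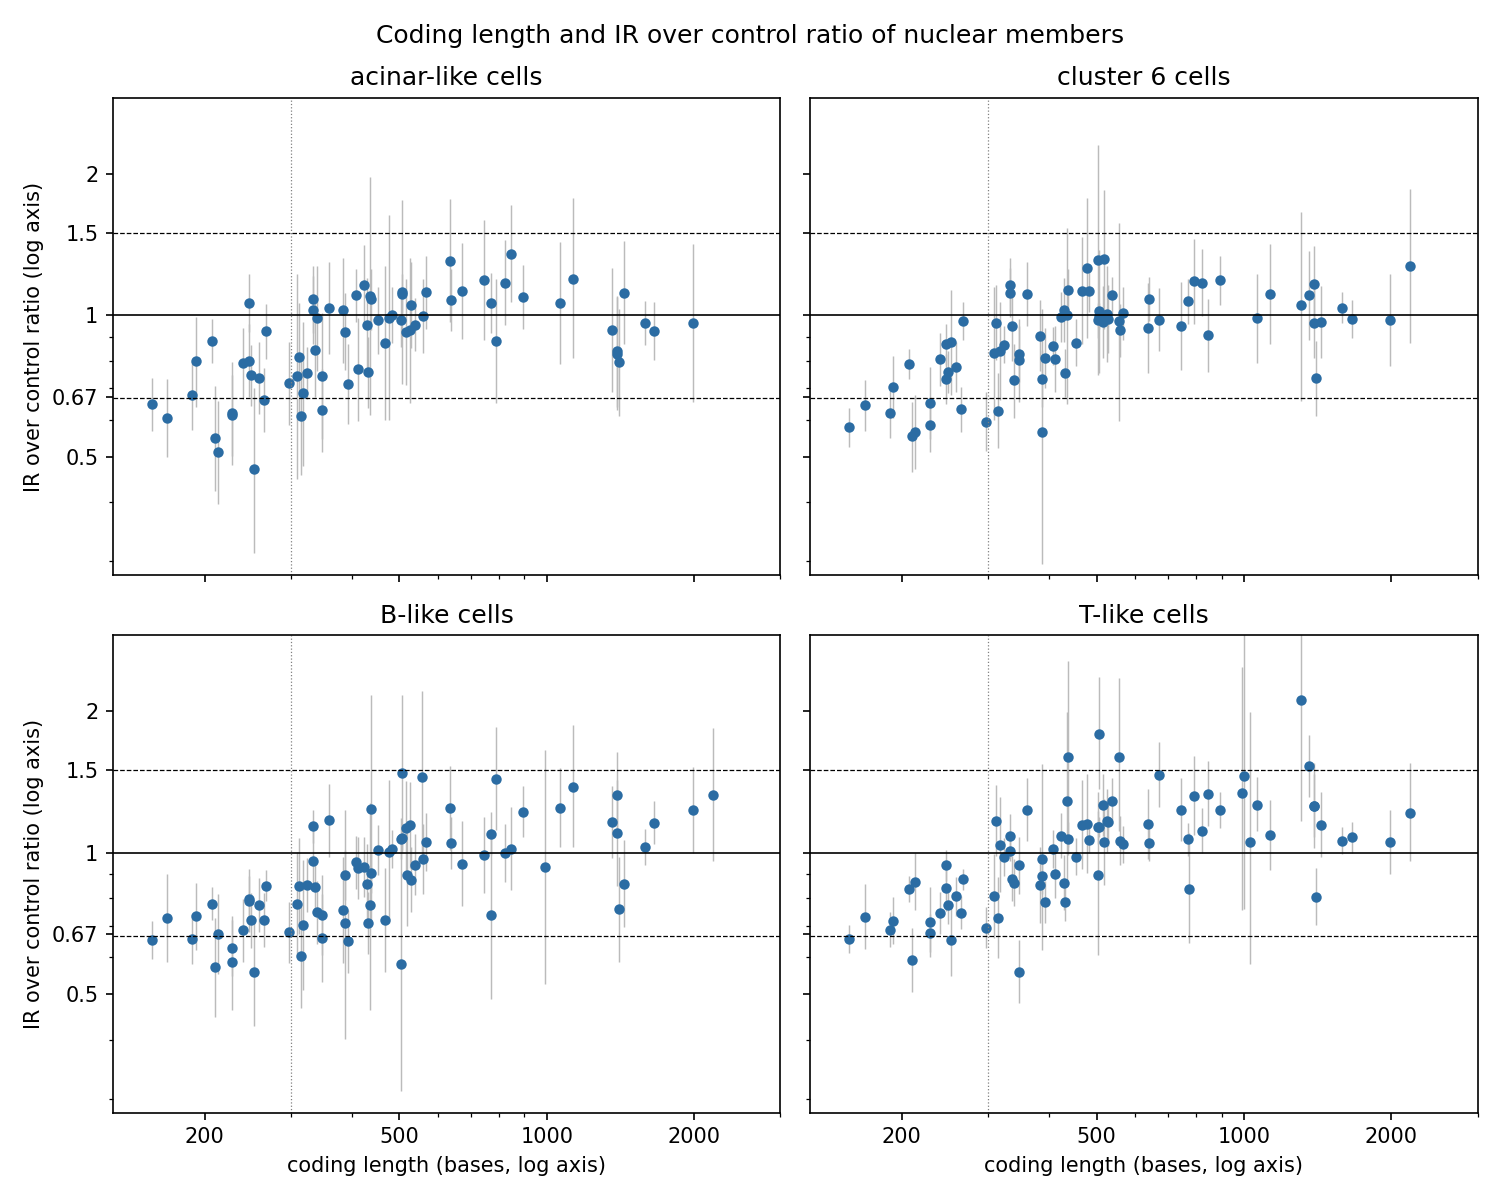
IR over control ratio of the nuclear members with at least 50 UMIs (vertical axis, log) against coding length in bases (horizontal axis, log) in 4 classes, with 95% intervals as grey bars. The dotted line marks 300 bases and the dashed lines a ratio of 1.5 in either direction. Members left of the dotted line have median ratios of 0.678 to 0.738, and those from 600 to 1200 bases 1.05 to 1.23.

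The same order by length was seen outside the members in 1 list and not in the other genes. Cytosolic ribosome genes, also short and abundant, had a rho of 0.764 to 0.885 over the 12 classes. All other coding genes had -0.261 to 0.0661. In T-like cells the median ratio of other coding genes under 300 bases was 0.980, against 0.612 for ribosomal genes and 0.738 for members of that length. Within cells at or under 5% mitochondrial UMIs, an alternative chosen after seeing the data, rho over the members ranged from 0.329 to 0.731 in the 10 classes where it could be computed. The ratio of striated duct-like to acinar-like cells within a library had a rho of 0.0218 in the control (73 genes) and -0.0204 in the IR library (72 genes). Of the members measured in all 12 classes, 6 had ratios below 1 in each, Cox6c, Cox7c, Atp5j2, Cox7a2, Uqcrq and Atp5j, though Cox7a2 and Atp5j came to 0.999 and 0.993 in 1 class. Their median coding length was 247.5 bases, against 435 for the other members measured in all 12. Of these 32 members, 0 were above 1 in every class. How library preparation or sequencing handled short RNAs in the 2 libraries was not tested, and it cannot be told apart from irradiation with 1 library each.

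Several complex IV subunits exist as a widely used form and a form known from muscle, and 3 of the muscle-type forms were confined to few cells here. Cox6a2 had 308 UMIs in all, and 257 of them (83.4%) lay in the 77 cells of cluster 17, a dendritic-like cluster led by Cd209a, Siglech, Cd209d and Ccr9. In that cluster Cox6a2 was at 850.3 CPM in 24 control cells (683 to 1046) and at 788 in 53 IR cells (673 to 916), with UMIs in 22 and 46 of them. Cox6a1, its widely used partner, was at 172 and 117 in the same cells, so Cox6a2 was the more abundant form in both libraries. In 463 control acinar-like cells Cox6a2 had 0 UMIs, which by a limit of 3 counts allows up to 3.35 CPM, and in 843 control B-like cells 0 UMIs, which by the same limit allows up to 1.41.

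Cox7a1 and Cox8b, known from heart, skeletal muscle and brown fat, were highest in striated duct-like cells. Cox7a1 had 52 UMIs in control striated duct-like cells (307 CPM, from 229 to 402) and 25 in IR ones (127, from 82.0 to 187), a ratio of 0.413. Cluster 12b, found in the IR library alone, had 0 of these UMIs. Cox7a1 was at 634 and 281 CPM in cluster 12a and at 182 and 146 in cluster 12d, with overlapping intervals in both. In acinar-like cells it had 5 and 0 UMIs, and in B-like cells 0 and 1. The ratio of striated duct-like to acinar-like control cells was 55.0 (22.1 to 176). Cox8b had 34 and 11 UMIs in striated duct-like cells, which is 201 and 55.8 CPM, against 1 and 1 in acinar-like cells. Their widely used partners remained the more abundant, since in cluster 12a of the control Cox7a2 was at 1923 and Cox7a1 at 634 CPM, and Cox8a at 4945 and Cox8b at 254. Counts this low give wide intervals.

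**Figure D5:**
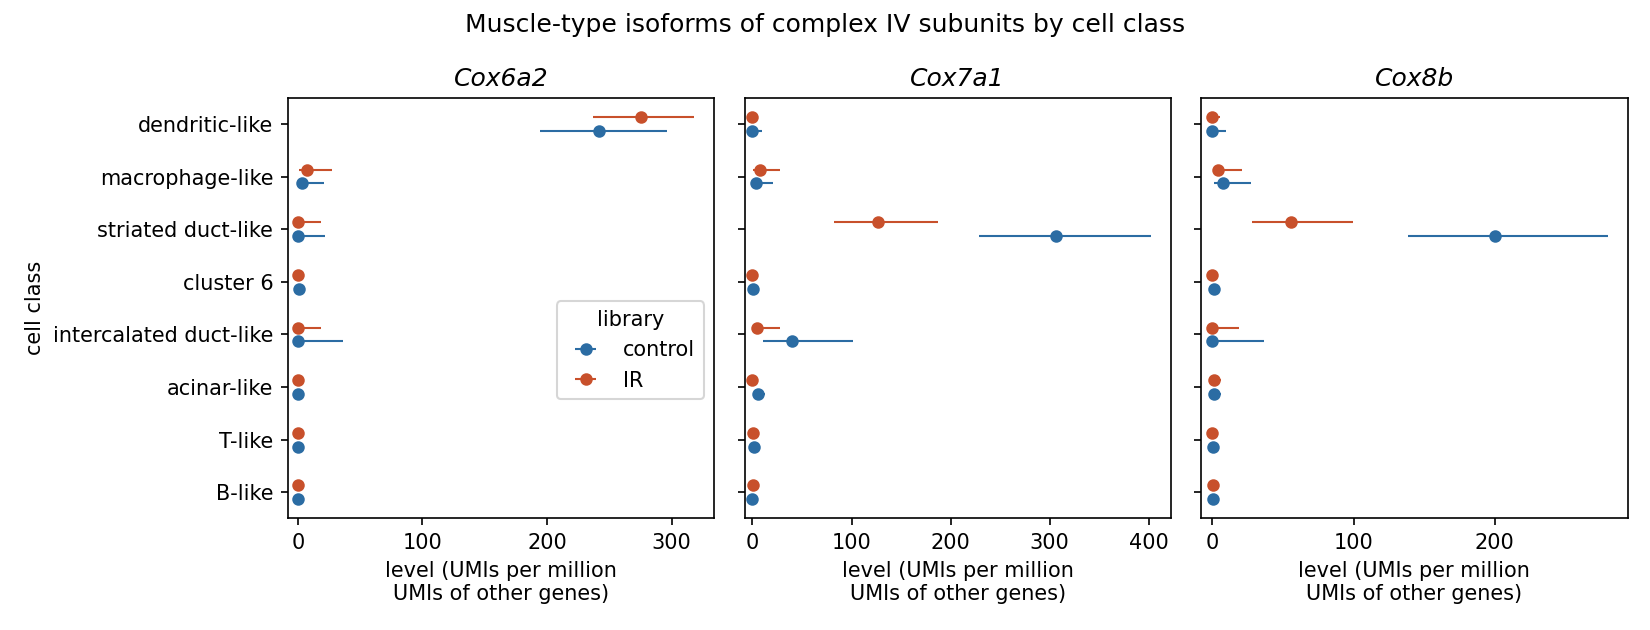
Level of Cox6a2, Cox7a1 and Cox8b in 8 cell classes, in CPM, with 95% Poisson intervals. Cox6a2 is high in dendritic-like cells alone of the classes drawn (control 242, IR 275), and Cox7a1 and Cox8b are highest in striated duct-like cells.

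The other tissue-specific forms were rare. Cox4i2 had 31 UMIs, 14 of them in macrophage-like cluster 16a, Ndufa4l2 had 25, 10 of them in stromal-like cells, and Cox6b2, a form known from testis, had 68. Cox7b2 and Cox8c, also known from testis, had 0 UMIs. Their widely used partners had 25098 (Cox4i1), 10934 (Ndufa4), 6984 (Cox6b1), 5872 (Cox7b) and 17168 UMIs (Cox8a). Of the c-ring genes, Atp5g1 had 8739 UMIs, Atp5g3 5775 and Atp5g2 325, and Atp5g2 shares all of its words with another gene.

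Promoters of 76 of the 92 nuclear members were found among RefSeq promoter sequences (GRCm38.p6, 250 bases before to 50 after the start). Nuclear respiratory factor 1, ETS factors and YY1 are known to act on genes of this group. The motif of nuclear respiratory factor 1 (NRF1) was searched on both strands and found in 7 of the 76 (9.21%), against 1.05% of 26949 other genes. The letters CCGGAAG, an ETS motif, were in 17 (22.4%) against 9.89%, and a YY1 motif in 6 (7.89%) against 0.976%. The other genes were not matched to the members for expression or base composition, so the shares do not tell whether the excess is particular to the members. These are matches of letters and not sites, and the motifs do not overlap in the promoter shown. The promoter of Atp5k, one of the lowest members in IR acinar-like cells, is shown because it holds both an NRF1 and an ETS motif, in capitals, the second on the other strand. It lies at chr5:108434350-108434649 on the minus strand.
Atp5k: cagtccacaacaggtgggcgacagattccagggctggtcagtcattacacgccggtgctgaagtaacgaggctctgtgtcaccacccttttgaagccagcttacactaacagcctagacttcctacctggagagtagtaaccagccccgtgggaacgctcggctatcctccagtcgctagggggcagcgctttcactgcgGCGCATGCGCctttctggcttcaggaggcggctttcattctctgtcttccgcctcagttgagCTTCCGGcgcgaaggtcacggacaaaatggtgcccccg

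Other genes of energy metabolism and of mitochondrial gene expression were counted in the same way. In T-like cells, where 3.22% of all genes were lower and 12.4% higher, 0 of 15 genes of the tricarboxylic acid cycle were past 1.5 times in either direction (median ratio 1.11), and of 14 measured glycolysis genes 0 were higher and 1 lower (1.03). Of 75 measured mitochondrial ribosome genes 3 were higher and 1 lower (1.11), and of 13 regulators of mitochondrial DNA, such as Tfam and Polrmt, 3 were higher (1.01). In acinar-like cells the medians were 1.16 for 12 tricarboxylic acid cycle genes, 1.21 for 8 glycolysis genes and 1.11 for 46 mitochondrial ribosome genes, against 0.928 for the nuclear members and 1.08 for all genes. In striated duct-like cells, where 19.2% of all genes were lower, 5 of 11 tricarboxylic acid cycle genes were (median 0.716), 8 of 13 mitochondrial carriers (0.640), 4 of 13 mitochondrial ribosome genes (0.774) and 2 of 10 glycolysis genes (0.823). In cluster 7, where 15% of all genes were higher, 4 of 13 tricarboxylic acid cycle genes (1.20) and 10 of 58 mitochondrial ribosome genes (1.16) were. Of the 15 stress genes that rise on dissociation, 3 were higher and 3 lower in T-like cells, and 1 higher and 2 lower in acinar-like cells.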

How the data were processed

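The authors deposited unnormalized counts of UMIs for each gene in each barcode. The submitters' processing notes name Cell Ranger 3.0.1 (mm10) and Seurat 3, and how cells were told from empty droplets is not given in the sources used here. Here, the libraries were integrated and clustered with Seurat 5.3.0 (R 4.3.3, 2000 variable genes without the members and mt- genes, 30 principal components, resolution 0.4), and mixed clusters were clustered again (20 components, resolution 0.8). Lists of marker genes named the classes. Cluster 6, first named for Etv1+ cells, is given by number because of its sub-cluster 6b. The leading genes of 6b held an acinar marker and no Etv1+ marker, though 4 of 7 Etv1+ markers were among its raised genes. Scrublet (scanpy 1.11.5) called 68 control cells (1.47%) and 5 IR cells (0.07%) doublets, too few in the IR library to use, so doublets stayed in and the 6% of cells with the highest scores were left out as an alternative.

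UMIs were summed per class and library with numpy 2.4.6, and intervals computed with scipy 1.17.1. A gene was measured in a class where the libraries together held at least 50 of its UMIs, and was counted as higher or lower past 1.5 times. Named genes were the mitochondrial members, isoform partners, complex II, the most abundant member per complex, the 3 highest and lowest ratios with at least 100 UMIs in 4 classes, and the 5 highest and lowest ratios of striated duct-like over acinar-like control cells. Gm28438 and the members below 1 in every class were named after their values were seen, and values without clusters 6b, 9d or 12b were added then. Coding lengths are from GENCODE M21, which held 48349 of the 48825 features. Steps were tested on simulated counts. Alternatives covered barcode filters, doublets, clustering, scaling (CPM over all genes, TMM from edgeR 4.0.16), weights of cells, members, fold and count minimum. The members, lists and alternatives were chosen with earlier results of these data known.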

Additional observations from a re-analysis of the deposited data

Results flagged for a closer look

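Mitochondrial members were lower in the IR library in 3 classes while T-like cells had them higher (1.42), namely acinar-like (0.663), intercalated duct-like (0.574) and striated duct-like cells (0.814). The 3 values depend on which cells are counted. At or under 5% mitochondrial UMIs the ratio was 2.03 in acinar-like and 2.19 in striated duct-like cells. In intercalated duct-like cells it did not turn (0.604), and the striated duct-like value still includes cells of cluster 12b. Leaving out clusters with most or all of their cells in the IR library, which was chosen after seeing the data, gave 1.03 in striated duct-like cells without 12b (0 control and 53 IR cells) and 1.53 in intercalated duct-like cells without 9d (9 control and 63 IR cells). The difference between the classes was not tested, since there is 1 library per condition. Nuclear members were higher in the IR library in cluster 4 (1.10), against 0.960 in T-like cells, which was not tested either.

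Barcodes with under 200 genes took no part in the comparisons. In the 649 such IR barcodes the mitochondrial members took 11.9% of the UMIs, against 5.54% in the 912 control ones, and the nuclear members 0.276% and 0.231%. Their median depth was 874 and 1036.5 UMIs.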

How the results depend on the processing

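The ratio of mitochondrial members in acinar-like cells turned from 0.663 to 2.03 in cells at or under 5% mitochondrial UMIs, 1.74 at or under 10%, 2.64 in cells with at least 500 genes and 1.23 at resolution 1.5. It was 0.651 without high doublet scores, 0.764 with CPM over all genes, 0.600 with TMM and 0.624 with each cell weighted alike. The nuclear ratio there (0.900) was 0.880 with at least 500 genes, 1.04 with CPM over all genes, 0.814 with TMM and 0.930 with equal weights. In T-like cells the mitochondrial ratio (1.42) was 1.46 and 1.47 under the 5% and 10% limits, 1.499 without high doublet scores, 1.43 without integration, 1.39 at resolution 1.5, 1.44 with CPM over all genes, 1.28 with TMM and 1.32 with equal weights, and the nuclear ratio (0.960) was 0.974, 0.870 and 0.975 under the last 3. Striated duct-like over acinar-like cells, the mitochondrial ratio (3.50) turned to 0.853 with equal weights and was 1.84 and 5.70 under the 5% and 10% limits, 49.4 with at least 500 genes, 3.36 without high doublet scores, 2.83 without integration, 11.4 at resolution 1.5, 9.09 with CPM over all genes and 1.21 with TMM. The nuclear ratio (3.93) was 5.29, 4.54 and 3.53 under the 3 filters, 3.26 without integration, 10.2 with CPM over all genes, 1.35 with TMM and 4.49 with equal weights. In acinar-like cells, 2 members were at least 1.5 times higher with CPM over all genes, 2 with a minimum of 20 UMIs and 4 with a minimum of 1, against 0, and 3 were lower with CPM over all genes and 1 at a fold of 2, against 10. For these results 37 other values stayed within the interval of the reported value (within 1.5 times for counts). For the other classes, named members and rho, 125 values stayed, 52 moved and 1 turned, the mitochondrial ratio of intercalated duct-like cells. Of 62 values of class sums among them, 7 crossed 1. At or under 5% mitochondrial UMIs, the mitochondrial ratio went from 0.814 to 2.19 in striated duct-like cells and from 1.09 to 0.947 in cluster 6, and the nuclear one from 0.965 to 1.09 in cluster 5. With CPM over all genes the nuclear ratio of cluster 6 went from 0.886 to 1.002. Under alternatives chosen after seeing the data, the mitochondrial ratio was 1.03 in striated duct-like cells without cluster 12b, and intercalated duct-like cells without cluster 9d had 1.53 (mitochondrial, from 0.574) and 1.07 (nuclear, from 0.718). The causes were not tested. Filters were applied to cells with their classes kept. No paired analysis was possible because each condition has 1 library. Genes under 50 UMIs in a class, as many members in ducts, have wide intervals.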
